A study of Homo sapiens with 4 samples.

Results

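Kinesins are motor proteins that walk along microtubules or take their ends apart, with ATP as fuel. The mitotic kinesins build the spindle, move and align the chromosomes and organise the midzone where the cell divides, and their transcripts belong to the set that dividing cells make mainly late in the cell cycle. The transport kinesins carry vesicles, mitochondria and other cargo along the microtubules of cells whether or not they divide. Cells of the blood use transport kinesins for secretion and for moving endosomes and lysosomes.

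The kinesin genes were taken as all genes whose array annotation gave a single symbol starting with KIF or KIFC and a number, which was a choice by name and not by measured value. This gave 43 of the 17687 genes measured, each with 1 array feature. Of these, 42 encode motors and 1, KIF25-AS1, is a non-coding RNA. By known function they were divided into 14 mitotic kinesins, 17 transport kinesins and 11 others, which serve cilia or have other or mixed roles. The division was made with earlier results of these data known. Some members could be placed otherwise, such as KIF21A and KIF3B among the transport kinesins and KIF2A among the others. KIF28P and the kinesin CENPE fall outside this count, the first as not analysed here and CENPE because of its symbol.

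Expression was measured in the human cell line NB4-R4, a retinoic acid-resistant derivative of the NB4 line of acute promyelocytic leukaemia. The groups were 2 arrays of cells given MK-8776, an inhibitor of the checkpoint kinase CHK1, at 4 µM for 96 h, and 2 arrays of cells given the vehicle DMSO for 96 h. Both groups are the same line, grown alike, and the replicates are described as biological without a word on how the cultures were kept apart, so p-values reflect only the spread among these arrays, which may be partly technical. All results thus come from 1 subline at 1 dose and 1 time.

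Values are deposited RMA expression on the log2 scale, and a change is MK-8776 minus DMSO, with its standard error (SE) and Benjamini-Hochberg adjusted p from limma over all 17687 genes (threshold 0.05). Of all genes, 2.02% fell and 1.66% rose by that test, 3.69% in either direction. Both MK-8776 arrays lay below both DMSO arrays in 24.2% of genes and above them in 24.0%, and 18.8% had an unadjusted p under 0.05. The correlation across genes was 0.993 within each group and 0.981 to 0.989 between groups. All 8 measured markers of myeloid identity had a mean above the median of all values (5.77), and 2 of them fell and 1 rose. Of the granule protease genes, CTSG fell by 2.20 (adjusted p = 0.00516) and PRTN3 had a change of -2.005 (adjusted p = 0.0193, limma), while ANPEP, which encodes the surface protein CD13, rose by 1.075 (adjusted p = 0.0316). The promyelocyte marker MPO was at 14.81 and 15.36 on the MK-8776 arrays, against 16.09 and 16.27 on the DMSO arrays, and did not pass (adjusted p = 0.0514, limma). Of 11 measured markers of other blood cells, 2 fell and 2 rose, with a median level of 6.02 and 6.79 on the MK-8776 arrays, against 6.25 and 6.00 on the DMSO arrays. Those that fell were ITGA2B (change -1.55) and CD3E (-1.38), and those that rose were PPBP (1.82) and NKG7 (1.225). The B cell gene MS4A1 lay at 3.20 to 3.53 on all 4 arrays, under the lower quartile of all values (3.97), while the B cell gene CD79A lay at 9.47 to 9.75, above the upper quartile (9.21), and 6 of the 11 had a mean above the median. The part of these markers in the kinesin values was not tested. CHEK1, which encodes the drug's target, was at 10.08 and 10.33 on the MK-8776 arrays, against 10.90 and 11.13 on the DMSO arrays (change -0.81, adjusted p = 0.0883, limma).

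Several mitotic kinesins fell in cells given MK-8776, led by KIF20A, and the transport kinesins gave a single call, a rise of KIF13B. Among the 14 mitotic kinesins there were 7 falls and 0 rises, and 7 did not pass the test, against 2.02% of all genes that fell. Their median change was -1.11, against 0.005 for all genes. Both MK-8776 arrays lay below both DMSO arrays in 12 of the 14, against 24.2% of all genes. Of the 17 transport kinesins 1 rose, 0 fell and 16 did not pass, against 1.66% of all genes that rose, and their median change was 0.165. A single call among 17 genes is near that share. An unadjusted p under 0.05 was found in 3 of the 17, near the 18.8% of all genes. The median of the mitotic class minus that of the transport class was -1.275. This difference between the classes is a description and carries no p-value, and 2 arrays against 2 cannot go below p = 0.333 in a two-sided exact permutation test. In bulk RNA, fewer dividing cells and less of these transcripts per cell cannot be told apart.

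**Figure D1:**
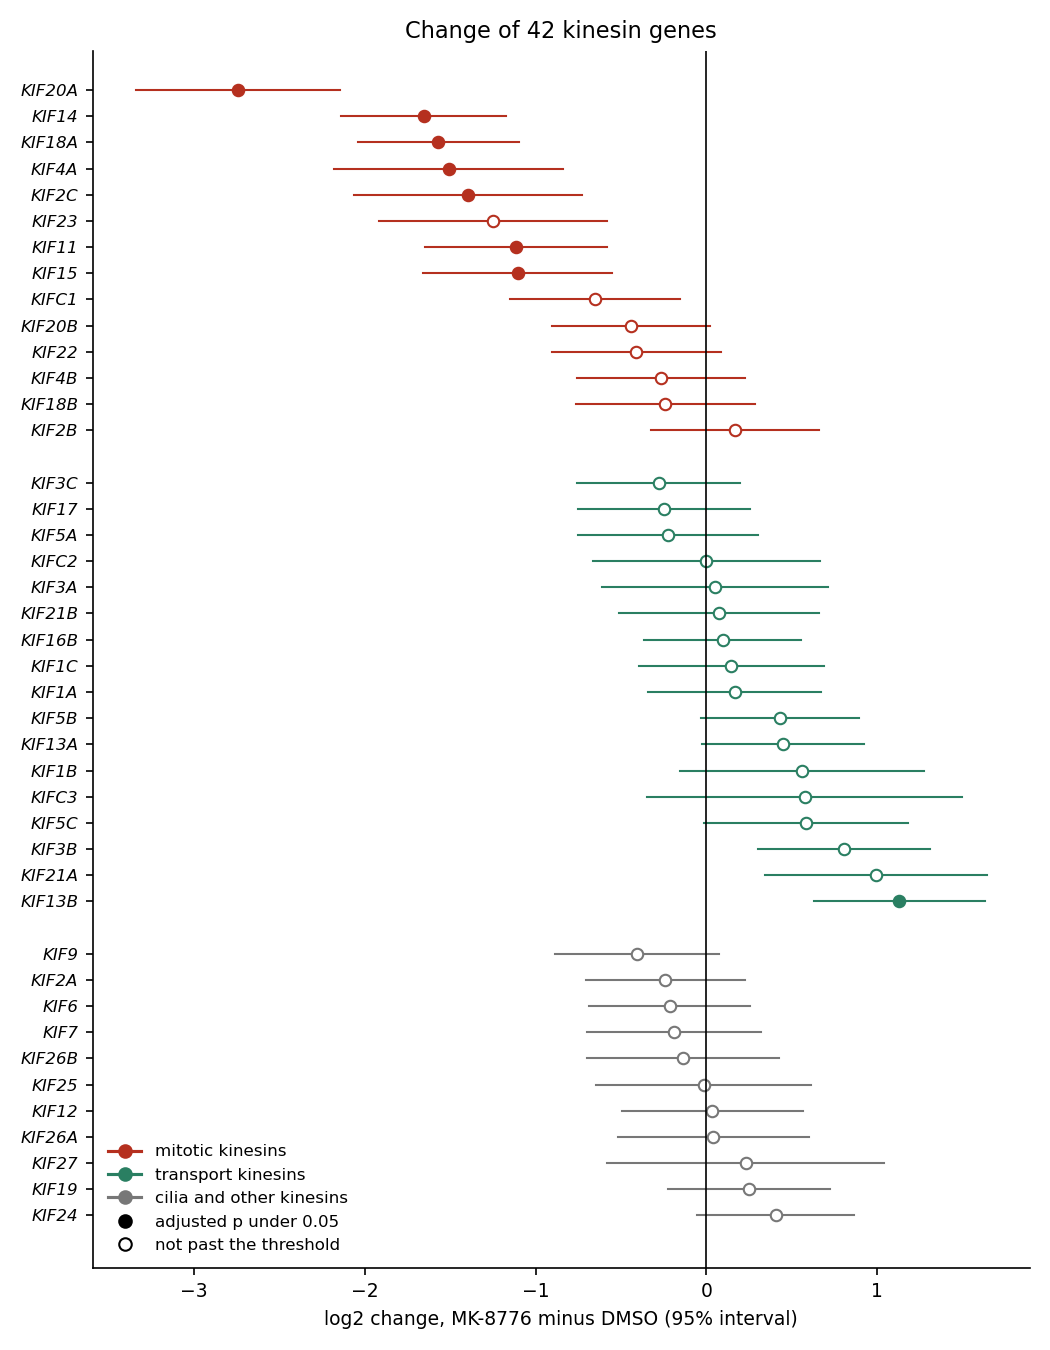
Log2 change (MK-8776 minus DMSO, horizontal axis) of the 42 kinesin motor genes by class, with the 95% interval of the limma fit as a line and filled points for adjusted p under 0.05. The mitotic kinesins spread from -2.745 for KIF20A to 0.17 for KIF2B, the transport kinesins from -0.28 for KIF3C to 1.13 for KIF13B, and the 11 others from -0.405 to 0.405.

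The kinesins of the central spindle and of cytokinesis held the largest fall of the family. KIF20A, the motor that brings mitotic kinases to the midzone (feature TC0500008777.hg.1, chromosome 5, 138179112 to 138187723, GRCh38), was at 4.34 and 4.93 on the MK-8776 arrays, against 7.55 and 7.21 on the DMSO arrays. Its MK-8776 values stood a little above the lower quartile of all values and far below both DMSO values. This was a change of -2.745 (SE 0.26, adjusted p = 0.00262, limma), a level 6.70-fold lower, and since the MK-8776 values lie near the bottom of the scale this fold may be a lower limit. KIF14, which acts in late cytokinesis (chromosome 1, 200551497 to 200620751), was at 6.90 and 7.16 on the MK-8776 arrays, against 8.66 and 8.71 on the DMSO arrays. The arrays of each group lay close together, and KIF14 fell by 1.655 (SE 0.21, adjusted p = 0.00785, limma). KIF23, the motor subunit of centralspindlin, was at 9.31 and 10.16 on the MK-8776 arrays, against 11.06 and 10.91 on the DMSO arrays. The groups did not overlap, but the MK-8776 arrays stood 0.85 apart, and the change of -1.25 (SE 0.29) missed the threshold at adjusted p = 0.0585 and passed it with a variance trend (0.0147, limma). KIF20B, a paralog of KIF20A that also acts in cytokinesis, was at 10.15 and 10.17 on the MK-8776 arrays, against 10.65 and 10.55 on the DMSO arrays. Its change of -0.44 did not pass (adjusted p = 0.289, limma), and its 95% interval of -0.90 to 0.02 lay apart from that of KIF20A, -3.34 to -2.15.

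Of the kinesins that shape microtubule ends and align chromosomes, KIF18A and KIF2C fell, and KIF18B and KIF2B did not pass. KIF18A, which damps chromosome movements at the metaphase plate (chromosome 11, 28020619 to 28108156), was at 7.62 and 7.45 on the MK-8776 arrays, against 9.14 and 9.07 on the DMSO arrays. Replicates differed by at most 0.17, and KIF18A fell by 1.57 (SE 0.21, adjusted p = 0.00832, limma). KIF2C, the depolymerase that corrects wrong attachments (chromosome 1, 44739837 to 44767767), was at 7.71 and 8.57 on the MK-8776 arrays, against 9.57 and 9.50 on the DMSO arrays. The MK-8776 arrays differed by 0.86 and still lay below both DMSO arrays. KIF2C fell by 1.395 (SE 0.29, adjusted p = 0.0400, limma), a call that was lost after quantile normalization (0.0508). KIF18B, which works on astral microtubules, was at 6.06 and 5.63 on the MK-8776 arrays, against 6.03 and 6.14 on the DMSO arrays, the only mitotic kinesin of the 14 whose groups overlapped. Its change was -0.24 with a 95% interval of -0.76 to 0.28. KIF2B was at 4.13 and 4.44 on the MK-8776 arrays, against 4.11 and 4.12 on the DMSO arrays, values near the bottom of the scale, with a change of 0.17 (adjusted p = 0.741, limma).

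**Figure D2:**
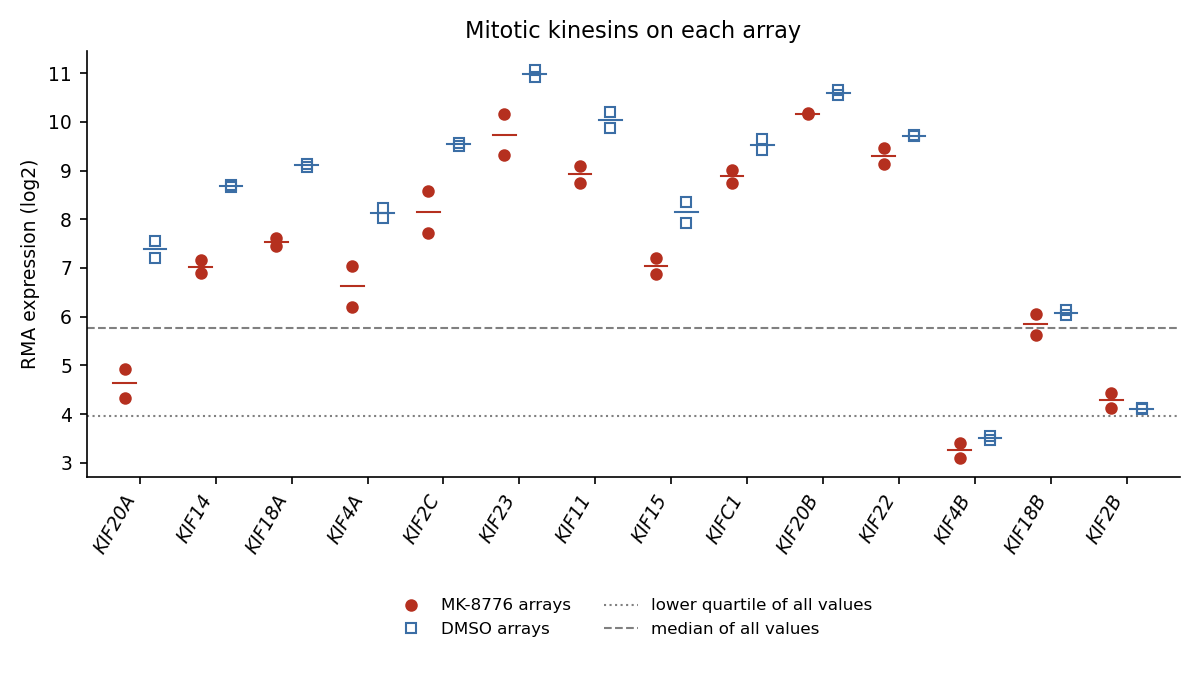
RMA expression (log2, vertical axis) of the 14 mitotic kinesins on each array, with MK-8776 arrays as filled circles, DMSO arrays as open squares, short bars for the group means and grey lines for the lower quartile (3.97) and the median (5.77) of all values. The groups are well apart from KIF20A to KIF15, close for KIF20B and KIF22, and near the lower grey line for KIF4B and KIF2B.

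The motors that push the spindle poles apart, KIF11 and KIF15, fell, and KIFC1, which opposes them, did not pass. KIF11, which slides microtubules of the bipolar spindle (chromosome 10, 92593130 to 92655395), was at 8.75 and 9.10 on the MK-8776 arrays, against 10.21 and 9.87 on the DMSO arrays. The groups lay 0.77 apart at their nearest values, and KIF11 fell by 1.115 (SE 0.23, adjusted p = 0.0402, limma), with the call lost after quantile normalization (0.0527). KIF15, a motor that can keep poles apart beside KIF11 (chromosome 3, 44761794 to 44868687), was at 7.21 and 6.87 on the MK-8776 arrays, against 8.36 and 7.93 on the DMSO arrays. It fell by 1.105 (SE 0.24, adjusted p = 0.0466, limma). The KIF15 call was the least secure of the 7, with an adjusted p of 0.0740 on quantile-normalized values, 0.0522 on median-centred values and 0.0570 when the unnamed features were added to the test. KIFC1, which walks to the minus end and bundles the poles, was at 8.75 and 9.01 on the MK-8776 arrays, against 9.42 and 9.64 on the DMSO arrays, and its change of -0.65 did not pass (adjusted p = 0.154, limma).

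Chromokinesins bind chromosome arms and push them outward. KIF4A (chromosome X, 70290104 to 70420886) was at 6.20 and 7.04 on the MK-8776 arrays, against 8.23 and 8.03 on the DMSO arrays. Its MK-8776 arrays stood 0.84 apart, and KIF4A fell by 1.51 (SE 0.29, adjusted p = 0.0315, limma). KIF22 was at 9.46 and 9.14 on the MK-8776 arrays, against 9.70 and 9.72 on the DMSO arrays. Its change of -0.41 did not pass (adjusted p = 0.360, limma), with a 95% interval of -0.90 to 0.08. KIF4B, an intronless close copy of KIF4A, lay between 3.11 and 3.56 on all 4 arrays, below the lower quartile, so the lack of a call says little. How far each KIF4 feature reads only its own copy is uncertain.

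Nearly all of the 7 calls were lost when any 1 array was left out. Their changes then ran from -3.04 to -0.89 over the 4 such fits, with the sign fixed beforehand because the groups do not overlap in any of the 7. Each such fit leaves a group of 1 array, which is assumed to vary like the other group. After adjustment, 0 of the 14 mitotic kinesins passed without DMSO replicate 1, 0 without DMSO replicate 2 and 0 without MK-8776 replicate 1, and KIF20A alone passed without MK-8776 replicate 2. Over all genes the limma fit then called 0, 0, 7 and 34. After quantile normalization of all 4 arrays 4 falls passed, those of KIF14, KIF18A, KIF20A and KIF4A. Replicates also differed from each other in this class and in related lists. MK-8776 replicate 1 was lower than replicate 2 in 9 of the 14 mitotic kinesins, 13 of 18 mitotic kinesin partners and 17 of 21 cell cycle genes, against 8605 of all 17687 genes. DMSO replicate 1 was lower than replicate 2 in 5 of the 14 mitotic kinesins, 11 of 18 partners and 15 of 21 cell cycle genes, against 8625 of all genes.

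Promoter sequences are shown because 7 of the 14 mitotic kinesins fell and none rose. Genes of late cell cycle expression often carry a cell cycle genes homology region near their start, with the letters TTTGAA and its variant form TTCGAA, and a CCAAT box upstream of it. Both strands of the 250 bases before each annotated start were searched for these motifs, and each was counted wherever it stood, also where motifs overlap. On the opposite strand the homology region reads TTCAAA, while the box there reads ATTGG. In RefSeq (GRCh38.p14), 15 windows matched the 14 mitotic kinesins, and 17 windows matched 12 of the transport kinesins. Counted by gene, a homology region motif stood in at least 1 window of 6 of the 14 mitotic kinesins (42.9%). The same held for 1 of the 12 transport kinesins (8.33%) and for 17.2% of all 27305 genes with a window. That last set is wider than the 17687 genes measured and includes non-coding genes. Counted by window the shares were 46.7%, 5.88% and 14.3% of all 35116 windows, where both windows of KIF22 hold the same motif. CCAAT stood in a window of 78.6% of mitotic kinesins, 33.3% of transport kinesins and 37.0% of all genes. Of the 7 mitotic kinesins that fell 4 held the homology region motif, namely KIF11, KIF15, KIF18A and KIF4A, and of the 7 that did not pass 2 did, KIF23 and KIF22. CCAAT leaned the other way, with 5 of the 7 that fell and 6 of the 7 that did not pass. A match is only a run of letters, and neither binding nor promoter activity was measured.

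The last 100 bases before the start are given 5′ to 3′ for those 6 genes, for KIF20A and for KIF4B, the copy of KIF4A. KIF20A, the gene with the largest fall, has CCAAT in its window but neither TTTGAA nor TTCGAA on either strand. Other forms of the homology region were not searched in any window. Capitals mark the motifs, and of the KIF22 windows the one before the upstream start is shown.
KIF11 (chr10:92593030-92593129, plus strand): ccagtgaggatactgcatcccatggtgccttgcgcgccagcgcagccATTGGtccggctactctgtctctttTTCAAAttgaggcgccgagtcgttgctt
KIF15 (chr3:44761694-44761793, plus strand): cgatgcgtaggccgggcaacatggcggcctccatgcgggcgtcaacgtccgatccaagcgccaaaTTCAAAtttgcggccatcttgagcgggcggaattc
KIF18A (chr11:28108157-28108256, minus strand): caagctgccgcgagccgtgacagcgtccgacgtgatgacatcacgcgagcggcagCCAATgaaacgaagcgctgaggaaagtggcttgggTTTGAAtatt
KIF4A (chrX:70290004-70290103, plus strand): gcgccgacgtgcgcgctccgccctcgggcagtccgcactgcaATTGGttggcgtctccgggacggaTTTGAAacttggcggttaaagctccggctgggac
KIF23 (chr15:69414249-69414348, plus strand): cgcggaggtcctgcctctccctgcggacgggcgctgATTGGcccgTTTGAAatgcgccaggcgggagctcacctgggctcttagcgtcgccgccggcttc
KIF22 (chr16:29790651-29790750, plus strand): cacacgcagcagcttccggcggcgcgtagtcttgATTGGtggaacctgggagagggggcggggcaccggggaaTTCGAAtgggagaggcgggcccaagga
KIF20A (chr5:138179012-138179111, plus strand): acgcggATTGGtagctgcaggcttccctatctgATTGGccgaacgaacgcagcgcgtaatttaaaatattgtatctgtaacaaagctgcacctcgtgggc
KIF4B (chr5:155013655-155013754, plus strand): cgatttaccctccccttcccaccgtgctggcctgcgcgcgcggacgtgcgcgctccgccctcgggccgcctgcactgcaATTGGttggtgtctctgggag
In KIF11 the homology region motif begins 28 bases before the start and 25 bases after the first base of the CCAAT box, and in KIF4A it begins 34 bases before the start and 24 bases after the box's first base. In KIF18A the spacing is 35 bases and in KIF22, whose change did not pass, 39 bases. KIF23 has the motifs 9 bases apart, and KIF15 has no CCAAT in its window. The windows of KIF4A and KIF4B share an unbroken run of 24 bases, and the window before the KIF4B start holds no homology region motif. That absence says little, because the matching ATTGG begins 58 bases before the KIF4A start but 21 bases before the KIF4B start. The stretch of KIF4B that matches the KIF4A motif would thus lie past the annotated start, where no search was made.

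Genes that start beside a mitotic kinesin on the other strand did not pass the test where their kinesin fell. Those starting within 1000 bases and pointing away were looked up, a step added after the values were seen, and 4 mitotic kinesins had such a neighbour among the measured genes. BRD8, a chromatin reader whose start lies 482 bases from that of KIF20A, was at 11.82 and 11.48 on the MK-8776 arrays, against 11.53 and 11.35 on the DMSO arrays. METTL15, a mitochondrial rRNA methyltransferase gene 232 bases from the start of KIF18A, was at 8.83 and 9.18 on the MK-8776 arrays, against 8.61 and 9.08 on the DMSO arrays. PDZD11, 177 bases from KIF4A, had a change of 0.16, and KIAA1143, 175 bases from KIF15, had -0.105. None of these 4 passed the test (adjusted p from 0.684 to 0.858, limma), while the kinesins of the 4 pairs had changes from -2.745 to -1.105. The difference within a pair was not tested.

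**Figure D3:**
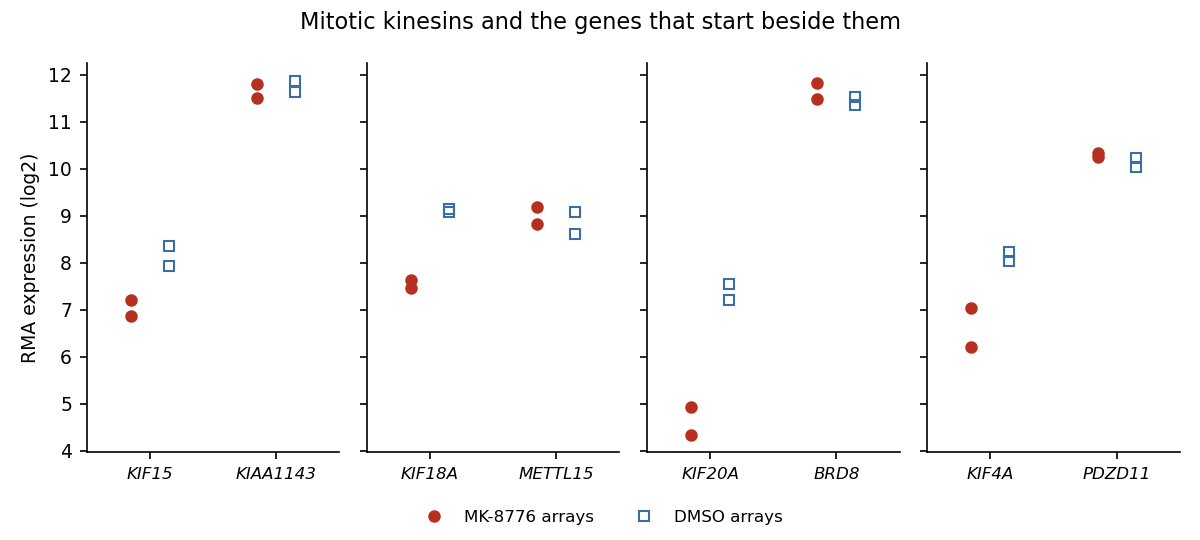
RMA expression (log2, vertical axis) of 4 mitotic kinesins that fell and of the gene starting within 1000 bases on the other strand, with MK-8776 arrays as filled circles and DMSO arrays as open squares. In each panel the kinesin's groups are apart, while KIAA1143, METTL15, BRD8 and PDZD11 show changes of -0.105, 0.16, 0.21 and 0.16.

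Among the transport kinesins a single member passed. KIF13B, a motor that carries membrane proteins and signalling cargo (chromosome 8, 29067278 to 29263388), was at 10.04 and 9.70 on the MK-8776 arrays, against 8.79 and 8.69 on the DMSO arrays. Both MK-8776 arrays stood above both DMSO arrays by at least 0.91, and KIF13B rose by 1.13 (SE 0.22, adjusted p = 0.0317, limma), a level 2.19-fold higher. The count of 1 rise in 17 stands against 1.66% of all genes, and the call was lost whichever of the 4 arrays was left out (changes of 0.96 to 1.30, adjusted p from 0.118 to 0.414, limma). KIF13A, its close relative in endosome transport, was at 7.29 and 7.49 on the MK-8776 arrays, against 6.96 and 6.92 on the DMSO arrays, a change of 0.45 that did not pass.

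KIF21A, which restrains microtubule growth at the cell cortex, was at 5.65 and 6.40 on the MK-8776 arrays, against 5.19 and 4.87 on the DMSO arrays. Its groups did not overlap, and the change of 0.995 (SE 0.28) did not pass (adjusted p = 0.104, limma). KIF3B, a subunit of the heterotrimeric motor of cilia and vesicles, was at 8.12 and 8.26 on the MK-8776 arrays, against 7.55 and 7.22 on the DMSO arrays (change 0.805, adjusted p = 0.0915, limma). Its usual partner subunit KIF3A had a change of 0.05, with MK-8776 values of 7.26 and 6.52 on either side of the DMSO values of 7.05 and 6.63.

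The conventional kinesin heavy chain KIF5B, the general carrier of mitochondria and lysosomes in non-neuronal cells, was at 13.11 and 13.02 on the MK-8776 arrays, against 12.67 and 12.60 on the DMSO arrays. Replicates lay within 0.09 of each other, and the change of 0.43 did not pass (adjusted p = 0.302, limma), with a 95% interval of -0.03 to 0.89. Its neuronal relative KIF5A lay between 3.18 and 3.69 on all arrays, under the lower quartile. KIF5C was at 3.89 and 4.55 on the MK-8776 arrays, against 3.72 and 3.55 on the DMSO arrays, and the annotation ties its feature to a non-coding transcript.

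The lowest changes of the class were those of KIF3C (-0.28), KIF17 (-0.25) and KIF5A (-0.225), with adjusted p from 0.543 to 0.672 (limma). Both MK-8776 arrays lay above both DMSO arrays in 7 of the 17 transport kinesins and below them in 1, KIF3C, with 9 overlapping, against 24.0% of all genes above and 24.2% below. The remaining members KIF1A, KIF1B, KIF1C, KIF16B, KIF21B, KIFC2 and KIFC3 had changes from 0 for KIFC2 to 0.575 for KIFC3, whose MK-8776 arrays stood 1.20 apart.

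**Figure D4:**
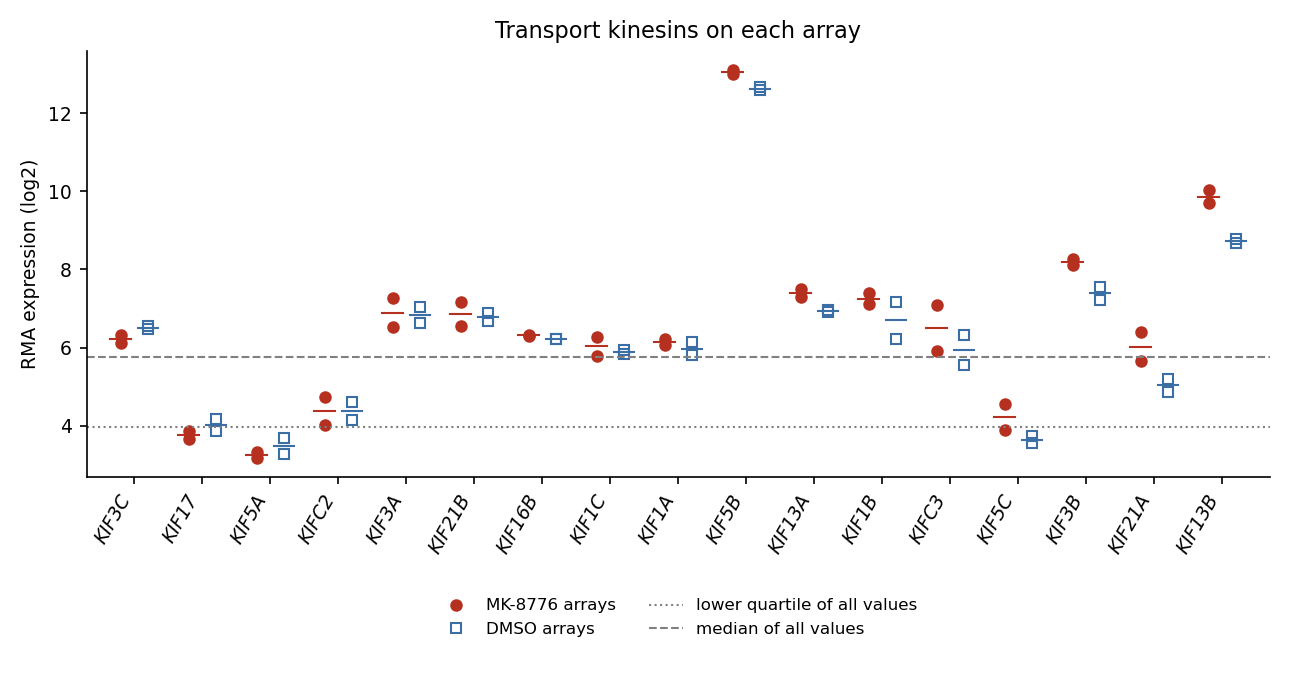
RMA expression (log2, vertical axis) of the 17 transport kinesins on each array, with MK-8776 arrays as filled circles, DMSO arrays as open squares, short bars for the group means and grey lines for the lower quartile (3.97) and the median (5.77) of all values. The groups overlap in 9 of the 17, and KIF13B, on the far right, shows the widest gap between groups in the class.

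Of the 11 kinesins of cilia or of other or mixed role, 0 passed in the limma fit against 3.69% of all genes, and 0 had an unadjusted p under 0.05. KIF2A, a depolymerase with roles at spindle poles and in neurons, was at 10.45 and 10.31 on the MK-8776 arrays, against 10.63 and 10.61 on the DMSO arrays. Its change of -0.24 had a 95% interval of -0.71 to 0.23, while that of its mitotic relative KIF2C ran from -2.06 to -0.73. KIF24, which acts at centrioles to hold back cilia, was at 5.88 and 5.92 on the MK-8776 arrays, against 5.47 and 5.52 on the DMSO arrays, a change of 0.405 (adjusted p = 0.332, limma). KIF9, a motor of motile cilia, was at 6.16 and 6.23 on the MK-8776 arrays, against 6.72 and 6.48 on the DMSO arrays, with a change of -0.405.

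KIF19 and KIF27 had changes of 0.25 and 0.23, and KIF6 had -0.215 at values of 3.26 to 3.58, under the lower quartile on all arrays. KIF7, KIF12, KIF25, KIF26A and KIF26B lay between -0.19 and 0.04. The non-coding RNA KIF25-AS1, which starts beside KIF25 on the other strand and shares 0 bases with it, had a change of -0.44 (adjusted p = 0.310, limma).

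Of 18 measured partners of the mitotic kinesins 9 fell, 0 rose and 9 did not pass, against 2.02% and 1.66% of all genes that fell and rose, and their median change was -1.04. CENPE, the kinetochore kinesin outside the symbol rule, was at 7.11 and 7.57 on the MK-8776 arrays, against 8.54 and 8.46 on the DMSO arrays, and fell by 1.16 (adjusted p = 0.0344, limma). PLK1, the kinase that KIF20A brings to the midzone, fell by 1.925, and the chromosomal passenger genes CDCA8 and BIRC5 had changes of -1.57 and -1.54, both past the threshold. TPX2, which targets KIF11 to spindle microtubules, fell by 1.485, and the spindle gene HMMR fell by 1.52. RACGAP1, which joins KIF23 in centralspindlin, fell by 1.135, and PRC1, the midzone bundler that KIF4A binds, fell by 1.12, and these were named after their values were seen. MAPRE1, a plus-end protein, and NUMA1, which focuses the poles, were the 2 members with a change above 0 (0.395 and 0.26), and neither passed.

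Among 21 measured genes of cell cycle progression and its transcriptional control there were 8 falls and 0 rises, against 2.02% and 1.66% of all genes. Their median change was -0.69. The changes of CCNB2, CCNA2, CDC20, TOP2A and CDK1, which act between S phase and the end of mitosis, were -2.0, -1.78, -1.705, -1.69 and -1.59, all past the threshold. The replication clamp gene PCNA was at 12.72 and 13.11 on the MK-8776 arrays, against 12.53 and 12.83 on the DMSO arrays, and the G1/S cyclin gene CCNE2 had a change of 1.265 (adjusted p = 0.0934, limma). Other list members went both ways. MCM2, CCND2 and E2F1 had changes of -0.77, -0.74 and -0.525, and CCNE1 and CCND3 had 0.235 and 0.515, and none of them passed. PCNA, CCNE2 and these members were named after their values were seen. Of the factors known to act at the homology region, LIN9 fell by 1.07 (adjusted p = 0.0332), while FOXM1 had a change of -0.69 (adjusted p = 0.233, limma), MYBL2 -0.185, LIN54 -0.005, LIN52 0.185, E2F4 0.275 and LIN37 0.56. Of these 7, which are counted among the 21, LIN9 alone passed, and all were named after their values were seen.

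The partners of the transport kinesins gave 0 calls among 23 measured in the limma fit, against 3.69% of all genes, with a median change of 0.065. An unadjusted p under 0.05 was found in 4 of the 23, near the 18.8% of all genes. The largest changes were 0.65 for KLC2, a light chain of conventional kinesin, and 0.615 for PLEKHM2, which links that motor to lysosomes. KIFBP, which blocks motor domains of several kinesins, was at 10.27 and 9.53 on the MK-8776 arrays, against 9.75 and 9.44 on the DMSO arrays. Of 20 measured genes of dynein and dynactin, the motor that runs the opposite way, 1 rose and 0 fell, against 1.66% and 2.02% of all genes, with a median of 0.3075. That 1 was ACTR10, a dynactin subunit gene, at 11.13 and 11.16 on the MK-8776 arrays, against 10.13 and 10.11 on the DMSO arrays (change 1.025, adjusted p = 0.0332, limma). Of the 20 genes, 10 had both MK-8776 arrays above both DMSO arrays and 4 had them below, against 24.0% and 24.2% of all genes. The unadjusted limma p was under 0.05 in 6 of the 20, against 18.8% of all genes. Of 17 measured tubulin genes 1 fell and 0 rose, against 2.02% and 1.66% of all genes, with a median of 0.125. A single call in a list of this size is near those shares. It was TUBA8, at 6.59 and 5.76 on the MK-8776 arrays, against 7.63 and 7.76 on the DMSO arrays, with a change of -1.52 (adjusted p = 0.0297, limma). The abundant alpha tubulin gene TUBA1B stayed between 17.32 and 17.44 on all 4 arrays.

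**Figure D5:**
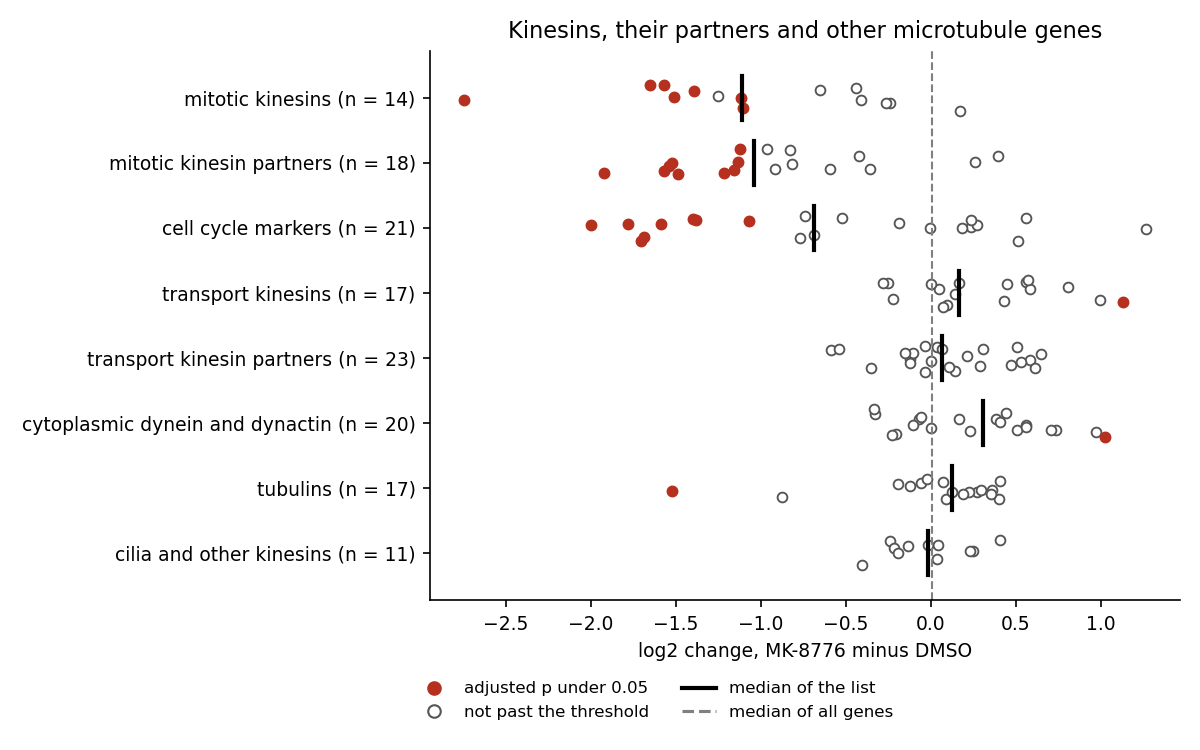
Log2 change (MK-8776 minus DMSO, horizontal axis) of each measured gene in 8 lists, with filled points for adjusted p under 0.05, black bars for list medians and a dashed line for the median of all genes (0.005). The medians of the mitotic kinesins (-1.11), their partners (-1.04) and the cell cycle genes (-0.69) lie left of the line, and those of the transport kinesins (0.165), their partners (0.065), dynein and dynactin (0.3075) and the tubulins (0.125) lie right of it.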

How the data were processed

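RNA from NB4-R4 cells was hybridised to 4 expression arrays, 2 per group. The deposited values are log2 expression per array feature, made by the authors with RMA and genome build hg38, per the submitters' processing notes. The version and settings of RMA were not given in the sources used here. The log2 scale was taken from the values (2.16 to 18.54), so the size of the changes rests on that reading. RMA gives the arrays like distributions, so changes are relative to the other genes. The number of arrays limits the precision.

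Of 21448 features, 17709 had 1 gene symbol, 0 several and 3739 none. For genes with over 1 feature the highest mean was kept, which left 17687 genes. These were fitted unfiltered with limma 3.58.1 in R 4.3.3 (lmFit, eBayes, two-sided), with Benjamini-Hochberg adjustment over all of them at 0.05. The fit was tested on simulated data with independent errors, a test that does not cover effects shared by arrays or cultures.

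The kinesins, their classes, the partner lists and the tests were chosen with earlier results of these data known. Named are all mitotic kinesins, other kinesins past the threshold or with the 3 highest or lowest changes or the 3 highest levels in their class, and per partner list up to 5 members past the threshold (or the 2 largest changes), plus CENPE, KIFBP and CHEK1. Other genes, such as KIF13A, KIF5C and KIF3A, were named after their values were seen. Promoters and coordinates come from RefSeq (GRCh38.p14). KIF5A, KIF13B, KIF19, KIF21B, KIF26B, KIF27, KIFC2 and KIFC3 had no matched window.

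Alternatives covered the scaling, the level filter, the variance prior, a replicate block, the features used, a 2-fold minimum and leaving out each array.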

Additional observations from a re-analysis of the deposited data

How the results depend on the processing

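The number of mitotic kinesins that fell was 4 after quantile normalization and 3 with the replicate block, against 7 as reported. Means over the features of a gene, a variance trend (also robust), only genes above the median level, median centring, all features and the 2-fold minimum gave 6 to 8. Leaving out 1 array gave 0 to 1. The rise among transport kinesins (1) was 0 with the replicate block and with any 1 array left out. The median change of the mitotic kinesins was -1.04 after quantile normalization and -1.18 among genes above the median level, and ran from -1.30 to -0.8825 with 1 array left out. That of the transport kinesins was 0.23 after quantile normalization, 0.215 after median centring and 0.2975 above the median level, and 0.19 to 0.36 with 1 array left out. The difference of the medians was -1.48 above the median level and ran from -1.53 to -1.11 with 1 array left out. Most of these medians moved by more than the SD between replicates of the class medians, and all kept their sign. That SD was 0.0552 for mitotic kinesins, 0.018 for transport kinesins and 0.0427 for their difference. The mitotic median without MK-8776 replicate 2 (-1.1125) and the difference without MK-8776 replicate 1 (-1.2425) moved by less. The level filter also leaves fewer members. Median centring moves the change of every gene by the same amount, and the difference of the medians stayed at -1.275 with it. The cause of the remaining shifts was not tested.

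Replicate numbers 1 and 2 occur in both groups, but the labels tie them to no shared culture or day. Deviations of same-numbered arrays correlated at 0.139 across genes, and 2 pairs do not settle a pairing. With the number as a block, KIF14, KIF18A and KIF20A passed, and all genes called numbered 309, against 652. That count was 1185 with a variance trend, 1162 with its robust form and 0 to 34 with 1 array left out. No change of a called kinesin reversed sign under these settings, which with an array left out is fixed by groups that do not overlap.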
